A study of Daphnia magna with 335 samples.

Results

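Among 2378 probes counted in whole Daphnia magna, 12 moved in opposite directions with 2-tert-butyl-4-methoxyphenol and with cis-nonachlordane. They were chosen by their measured values: a log2 ratio of at least 0.6 in size for both chemicals with opposite signs, and of less than 0.5 in size for the highest concentration of fipronil amide. Each ratio set the mean CPM (counts scaled to one common total per library) of the treated pools, plus 2, against that of the DMSO pools of the same exposure, plus 2. The methoxyphenol ratio used 66.67 µM, the cis-nonachlordane ratio used 21.1, 6.677 and 2.113 µM together, and the fipronil amide ratio used 56.43 µM. Only the 1353 probes with a mean of 10 to 3000 CPM over the 36 DMSO pools were eligible. Of the 12 members, 11 were lower with methoxyphenol and higher with cis-nonachlordane, and 1 had the reverse pattern. The same limits with equal signs held 31 probes, of which 9 were lower and 22 higher with both chemicals. The fipronil amide limit removed no probe, since 12 probes also met the rule without it.

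Daphnia magna, a water flea, is a freshwater crustacean used as a standard animal in ecotoxicology. 2-tert-Butyl-4-methoxyphenol is the main isomer of butylated hydroxyanisole, a phenolic antioxidant used as a preservative. cis-Nonachlordane is a chlorinated cyclodiene found in technical chlordane, an insecticide mixture whose members act on GABA-gated chloride channels. Fipronil amide is a breakdown product of the phenylpyrazole insecticide fipronil, which acts on the same kind of channel. The probes carry transcript identifiers only. Since 0 of the 2378 identifiers matched the RefSeq gene table of Daphnia magna, the members are given by identifier, with no gene name or role.

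The study exposed animals for 24 h to 12 chemicals at 8 concentrations each, on plates shared by pairs of chemicals, and measured RNA with TempO-Seq, in which pairs of short detector oligos are joined on each targeted transcript and counted. The 335 libraries were 287 of treated pools, 36 of DMSO pools and 12 labelled control QA, which entered no ratio and no test. Each treated or DMSO library came from a pool of up to 5 whole animals, with animals that had died left out. Each treated group has 3 pools unless stated. Each of the 6 exposures (named C1C2 to C11C12 after its pair of chemicals) has 6 pools that received the solvent DMSO alone, 3 named CON and 3 named XtraC, and every treated well held the same DMSO content as these. The groups used most are methoxyphenol at 66.67 to 0.021 µM with DMSO of exposure C5C6, and cis-nonachlordane at the same concentrations with DMSO of exposure C11C12. The labels give no strain, age or sex of the animals. The number of animals alive in each pool was not analysed here, so at the highest concentrations the pools may differ in how many animals they hold. In whole animals, fewer cells of a type and less RNA per cell cannot be told apart. Libraries held 118094 to 1171681 counts with a median of 619413; the 3 pools at 66.67 µM methoxyphenol held 485715 to 704859 and the 24 cis-nonachlordane pools 412739 to 826525. The pool of 3,4-dichlorophenyl isocyanate at 21.1 µM with the letter C stood apart, with 118094 counts of which 90.8% fell on 10 probes.

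The 11 members lower with methoxyphenol differed widely in how far they fell short of DMSO at 66.67 µM, with log2 ratios from -6.12 to -0.65 and a median of -1.90. Their ratios with cis-nonachlordane were more alike, from 0.69 to 1.52 with a median of 0.92. The fipronil amide ratios of all 12 members lay between -0.44 and 0.34. Mean levels in DMSO ran from 10.4 to 1145 CPM. All of these values chose the members and are given as a description, with no test.

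**Figure D1:**
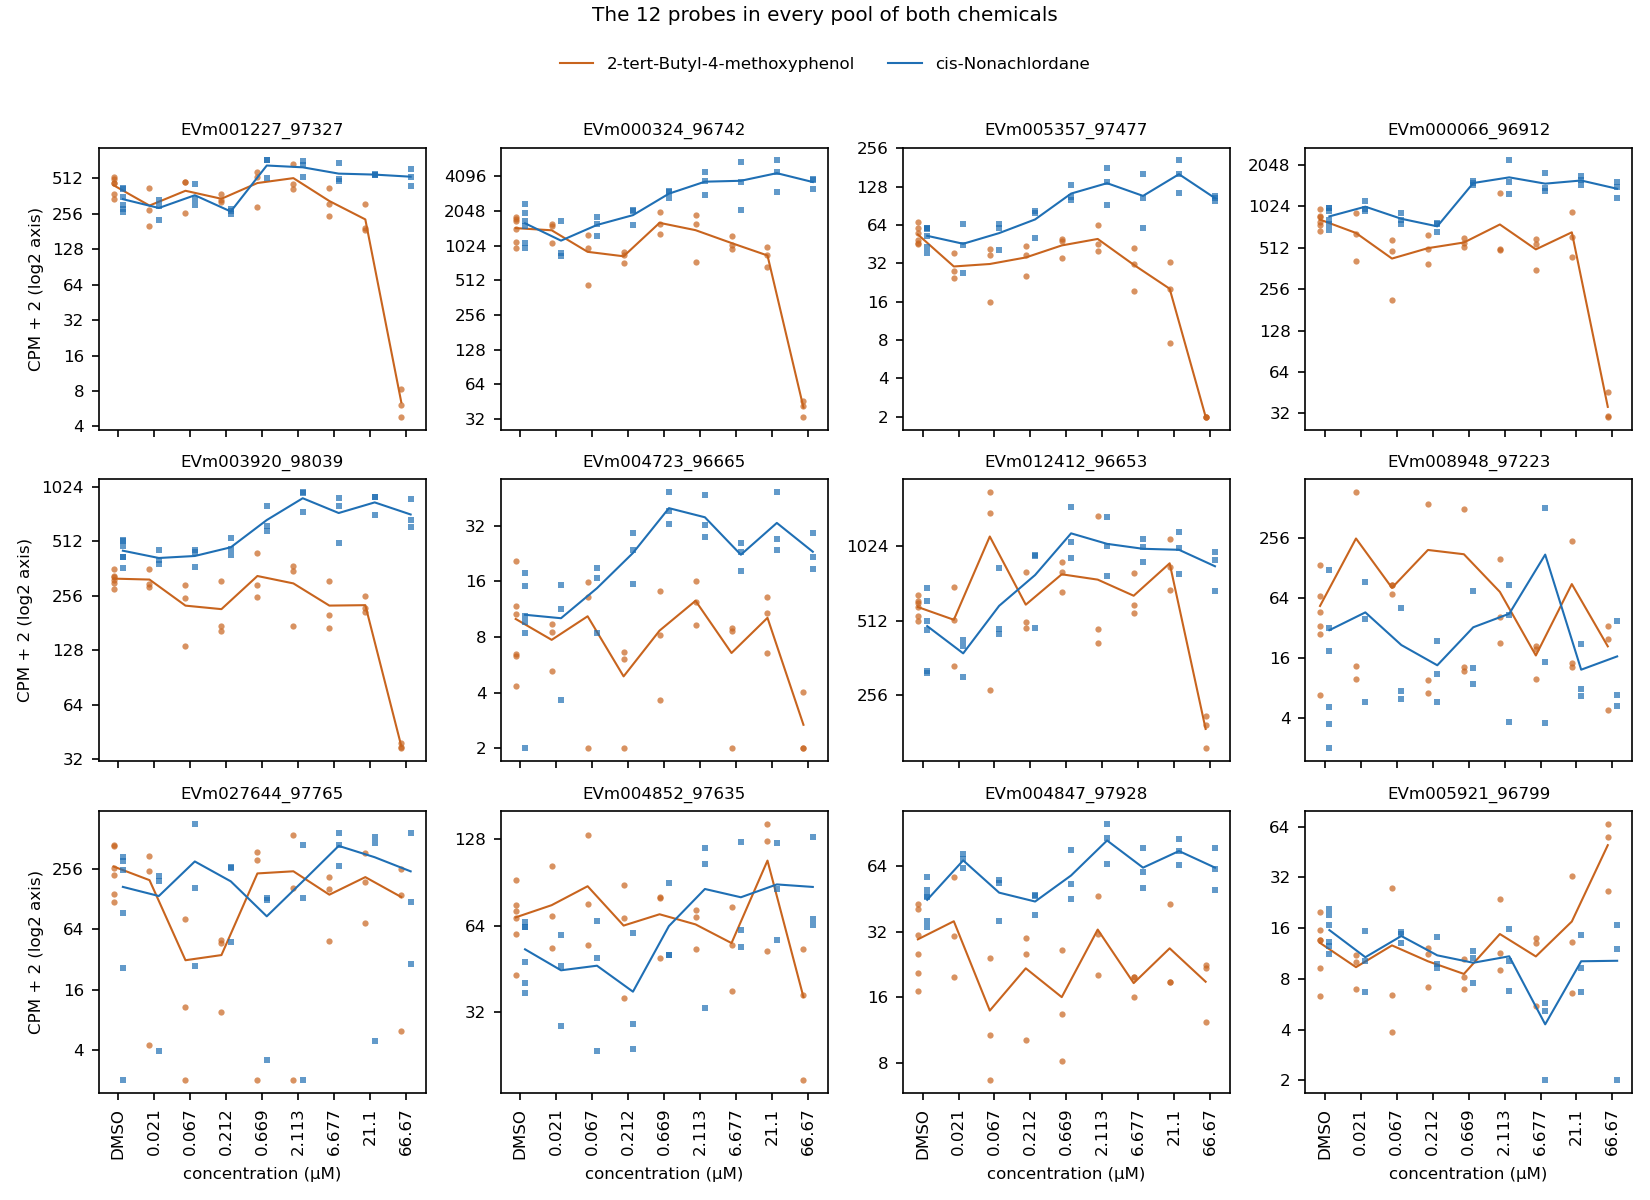
Level of each of the 12 probes (CPM + 2, log2 axis) in every pool of 2-tert-butyl-4-methoxyphenol (orange circles) and cis-nonachlordane (blue squares) by concentration in µM, with the DMSO pools of each exposure at the left; lines join group means, and identifiers are shown without their prefix Dapma7b. Dapma7bEVm005357_97477 is at 0 CPM in the 3 pools at 66.67 µM methoxyphenol, and its cis-nonachlordane pools at 66.67 µM lie between 97.0 and 106 CPM.

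Dapma7bEVm005357_97477 was one of the members with the largest opposite changes. It had 0 counts in all 3 pools at 66.67 µM methoxyphenol. The 6 DMSO pools of that exposure lay between 43.5 and 65.8 CPM with a median of 49.8. Against a floor of 3 counts over the 3 treated pools, its level was at least 32.0-fold lower. With cis-nonachlordane the 9 pools at 21.1 to 2.113 µM lay between 58.4 and 204 CPM with a median of 137, and the DMSO pools between 36.7 and 59.1 CPM. The lowest treated pool thus lay just below the highest DMSO pool, and the other 8 lay above it. With fipronil amide at 56.43 µM the pools held 57.0, 74.5 and 89.5 CPM, which overlapped the DMSO range of 44.0 to 69.3 CPM.

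Dapma7bEVm004723_96665 was a low-count member. It had 0 CPM in 2 pools and 2.06 CPM, 1 count, in the other at 66.67 µM methoxyphenol. The DMSO pools held 2.33 to 18.6 CPM, 34 counts in all. The ratio of 15.5-fold lower had an exact 95% interval of 2.60 to 630, which covers counting error only. These pools chose the probe, so the ratio and its interval are a description and no test of the change. With cis-nonachlordane at 21.1 to 2.113 µM the 9 pools held 16.2 to 46.6 CPM with a median of 25.1, and the DMSO pools 0 to 15.8 CPM. These groups did not overlap.

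Dapma7bEVm005921_96799 was the member with the reverse pattern. At 66.67 µM methoxyphenol its pools held 24.7, 53.9 and 64.5 CPM, all above the DMSO range of 4.32 to 18 CPM. With cis-nonachlordane at 21.1 to 2.113 µM the log2 ratio was -0.88, and the lowest value came from 6.677 µM, where 1 pool was at 0 and the others at 3.16 and 3.73 CPM. The pools at 21.1 and 2.113 µM overlapped the DMSO range of 9.19 to 18.7 CPM.

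Just inside the limits stood Dapma7bEVm004847_97928 with a methoxyphenol log2 ratio of -0.65, Dapma7bEVm003920_98039 with a fipronil amide log2 ratio of -0.44 and Dapma7bEVm004852_97635 with a cis-nonachlordane log2 ratio of 0.69. Just outside, each through its cis-nonachlordane log2 ratio, stood Dapma7bEVm010557_97536 at 0.58, Dapma7bEVm001213_96041 at 0.56 and Dapma7bEVm027561_96153 at 0.52.

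The ratios over concentration are given for each chemical as a description. With cis-nonachlordane the median log2 ratio of the 11 members to DMSO was 0.67 at 66.67 µM, 0.89 at 21.1 µM, 1.04 at 6.677 µM, 0.94 at 2.113 µM and 0.81 at 0.669 µM. It was 0.06 at 0.212 µM, 0.07 at 0.067 µM and -0.21 at 0.021 µM. The ratios were thus of similar size over the 5 highest concentrations and near 0 below them. With methoxyphenol the median was -1.90 at 66.67 µM, -0.31 at 21.1 µM and -0.61 at 6.677 µM, and between -0.56 and 0.04 at the 5 lower concentrations. Dapma7bEVm001227_97327, the member farthest below DMSO at 66.67 µM with a log2 ratio of -6.12, had -0.96 at 21.1 µM and -0.45 at 6.677 µM. The ratios at different concentrations of a chemical share the same 6 DMSO pools, which also entered the rule. The values at 66.67 µM methoxyphenol and at 21.1, 6.677 and 2.113 µM cis-nonachlordane chose the members. Their opposite signs were thus set by the choice and carry no test.

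Whether the cis-nonachlordane change was also present in pools that had not chosen the members was tested by setting 66.67 and 0.669 µM against 0.067 and 0.021 µM, with no DMSO pool in the fit. Of the 11 members tested, 7 were higher at the higher concentrations and 0 were lower, where 2.41% of all probes were higher (edgeR quasi-likelihood test, Benjamini-Hochberg over 1368 probes, read at 0.05). The members' median log2 fold change was 0.70 and that of all probes -0.01. Dapma7bEVm005921_96799 did not pass the filter on low counts.

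Dapma7bEVm004723_96665 held 16.8, 19.6 and 27.1 CPM at 66.67 µM, and 30.6, 36.3 and 46.7 CPM at 0.669 µM. It held 6.40, 14.8 and 17.0 CPM at 0.067 µM and 1.64, 9.38 and 13.4 CPM at 0.021 µM. The groups overlapped by 1 pool on each side, and the log2 fold change was 1.43 ± 0.35 (SE, adjusted p = 0.0325, edgeR). Dapma7bEVm000324_96742 held 3209.8, 3846 and 3925 CPM at 66.67 µM and 2661, 2988 and 3054 CPM at 0.669 µM. It held 1254, 1565 and 1829 CPM at 0.067 µM and 829, 882 and 1685 CPM at 0.021 µM. These groups did not overlap, and the log2 fold change was 1.27 ± 0.16 (SE, adjusted p = 0.00044, edgeR).

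The other 5 members called had log2 fold changes from 0.61 to 1.11. The pools of 4 of 12 members did not overlap between these higher and lower concentrations, which held for 2.22% of the 1353 eligible probes. Of the members not called, Dapma7bEVm004852_97635 had 0.70 ± 0.33 (adjusted p = 0.313), Dapma7bEVm004847_97928 0.04 ± 0.17 (adjusted p = 0.922), Dapma7bEVm008948_97223 -0.50 ± 0.83 (adjusted p = 0.799) and Dapma7bEVm027644_97765 -0.58 ± 0.94 (adjusted p = 0.794), each a log2 fold change with its SE from edgeR. The last pair were thus below 0 in pools that had not chosen them, with errors wider than the change. Without the pools lettered A, B or C the count of members called was 5, 1 and 1; the 1 left without B and without C was Dapma7bEVm000066_96912. Calls over all probes in either direction fell as well, from 56 of 1368 to 34 of 1381, 8 of 1372 and 13 of 1379. In each of these fits 9 of 11 members had a log2 fold change above 0.

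**Figure D2:**
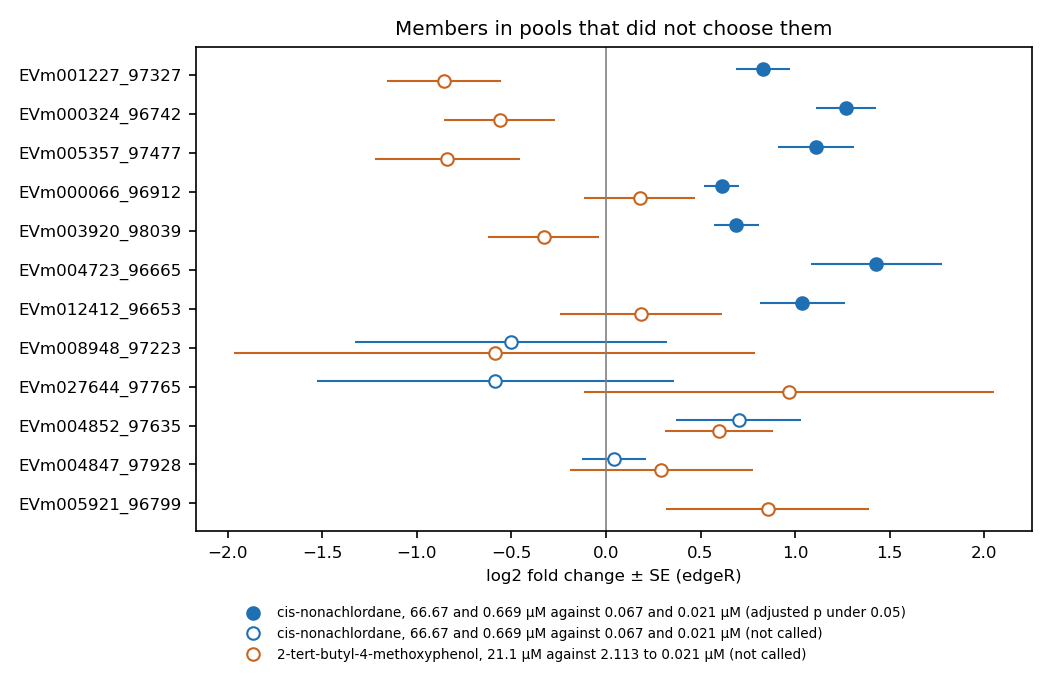
Log2 fold change with its SE (edgeR) of each member in pools that had not chosen it, for cis-nonachlordane (blue) and 2-tert-butyl-4-methoxyphenol (orange); filled points have an adjusted p under 0.05, and a missing point did not pass the filter on low counts. With cis-nonachlordane 7 members were higher, and with methoxyphenol 0 of 11 members were called.

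For methoxyphenol the pools that had not chosen the members were those below 66.67 µM, and 21.1 µM was set against 2.113 to 0.021 µM. Of 11 members tested, 0 were called, where 2.01% of all probes were (edgeR quasi-likelihood test, Benjamini-Hochberg over 1443 probes). At an unadjusted p under 0.05 there were 2 of 11, where 13.7% of all probes were, and DESeq2 called 0. Over the 10 tested members that the rule found lower with methoxyphenol, 5 were below 0 and 5 above it, and the median log2 fold change was -0.07, with 0.02 over all probes. The 2 members with an unadjusted p under 0.05 were lower at 21.1 µM. Dapma7bEVm001227_97327 held 186, 190 and 306 CPM at 21.1 µM against 198 to 669 CPM with a median of 412 in the 15 pools below, and its log2 fold change was -0.86 ± 0.30 (SE, adjusted p = 0.193, edgeR). Dapma7bEVm005357_97477 held 5.59, 18.2 and 30.8 CPM against 14.0 to 61.4 CPM with a median of 36.4, and its log2 fold change was -0.84 ± 0.38 (SE, adjusted p = 0.339, edgeR). The lowest of these values was 1 count in a library of 179032 counts, one of 3 methoxyphenol libraries with totals under 50% of the chemical's median; without these 3 libraries, a choice made after seeing the data, 0 members were called. The pools at 21.1 µM were apart from those below for 0 of 12 members and for 2% of the eligible probes. Without the pools lettered A, 1 member was called, Dapma7bEVm000324_96742, which was lower at 21.1 µM, and 5.62% of all probes were called. The methoxyphenol values that chose the members come from the 3 pools at 66.67 µM alone.

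The difference between the chemicals was tested directly in the same pools, as the cis-nonachlordane contrast minus the methoxyphenol contrast. It was called above 0 for 3 of 12 members and called below 0 for 0, where 0.344% of all probes, 5 of 1452, were called above 0. Dapma7bEVm005357_97477 had a log2 difference of 1.97 ± 0.43 (SE, adjusted p = 0.0107, edgeR). Dapma7bEVm000324_96742 had 1.85 ± 0.36 (SE, adjusted p = 0.00301, edgeR). The remaining one, Dapma7bEVm001227_97327, had 1.70 ± 0.35 (SE, adjusted p = 0.00539, edgeR) and was named after its values were seen. These contrasts compare 66.67 and 0.669 µM of the one chemical with 21.1 µM of the other, so the concentrations were not matched. Without the pools lettered A the count was 4, and without B or without C it was 0; over all probes 20, 2 and 4 were then called in either direction. Without the 3 libraries of low total it was 1, Dapma7bEVm000324_96742.

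In exposures C1C2, C3C4 and C7C8, whose pools entered the rule only through the mean over 36 DMSO pools that set eligibility, a group of the members varied together from pool to pool. Each library's log2 level was taken as its deviation from the mean of its own group, and the isocyanate library that stood apart was left out, leaving 160 libraries. Over the 11 members lower with methoxyphenol the median correlation of a pair was r = 0.40, and over 914628 pairs of probes in the eligible range it was 0.099. Of the members, 6 were close to one another, with r from 0.73 to 0.91 and a median of 0.80 over their 15 pairs. They were Dapma7bEVm001227_97327, Dapma7bEVm000324_96742, Dapma7bEVm005357_97477, Dapma7bEVm000066_96912, Dapma7bEVm003920_98039 and Dapma7bEVm004847_97928, named after their values were seen.

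In exposure C1C2 the level of these members moved with the letter of the pool. There, 17 of 18 libraries lettered A were below their group's mean for the average of these 6 members, and 0 of 18 lettered B and 0 of 16 lettered C were. The median deviation on the log2 scale was -1.44 for A, 0.62 for B and 0.76 for C. All 14 groups of 3 pools in C1C2 held 1 pool more than 1 log2 unit below the group's median, and it was the one lettered A in 14 of 14. A pool that low was present in 1 of 16 groups in C3C4, where it was not lettered A, and in 0 of 16 in C7C8. The DMSO pool CON A of C1C2 was among the low ones, with Dapma7bEVm000324_96742 at 163 CPM, Dapma7bEVm003920_98039 at 27.8 CPM and Dapma7bEVm004847_97928 at 7.94 CPM. The labels do not say what the letters stand for.

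With the mean of each letter in each exposure also removed, a step chosen after seeing the data, the median over the 15 pairs was 0.37, against 0.099 for all probes in range. It was 0.32 in C1C2, 0.53 in C3C4 and 0.43 in C7C8, against 0.18, 0.066 and 0.054 for all probes. The 15 pairs are of members grouped after their r in the same libraries was seen, so this choice partly fixed their medians. Over the pairs of all 11 members lower with methoxyphenol, the median over all libraries was 0.27 after the same step. By exposure that median was 0.18 in C1C2, 0.24 in C3C4 and 0.29 in C7C8. In C1C2 it was thus no higher than that of all probes. These are descriptions over libraries that share their depth and RNA composition, and they carry no test.

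**Figure D3:**
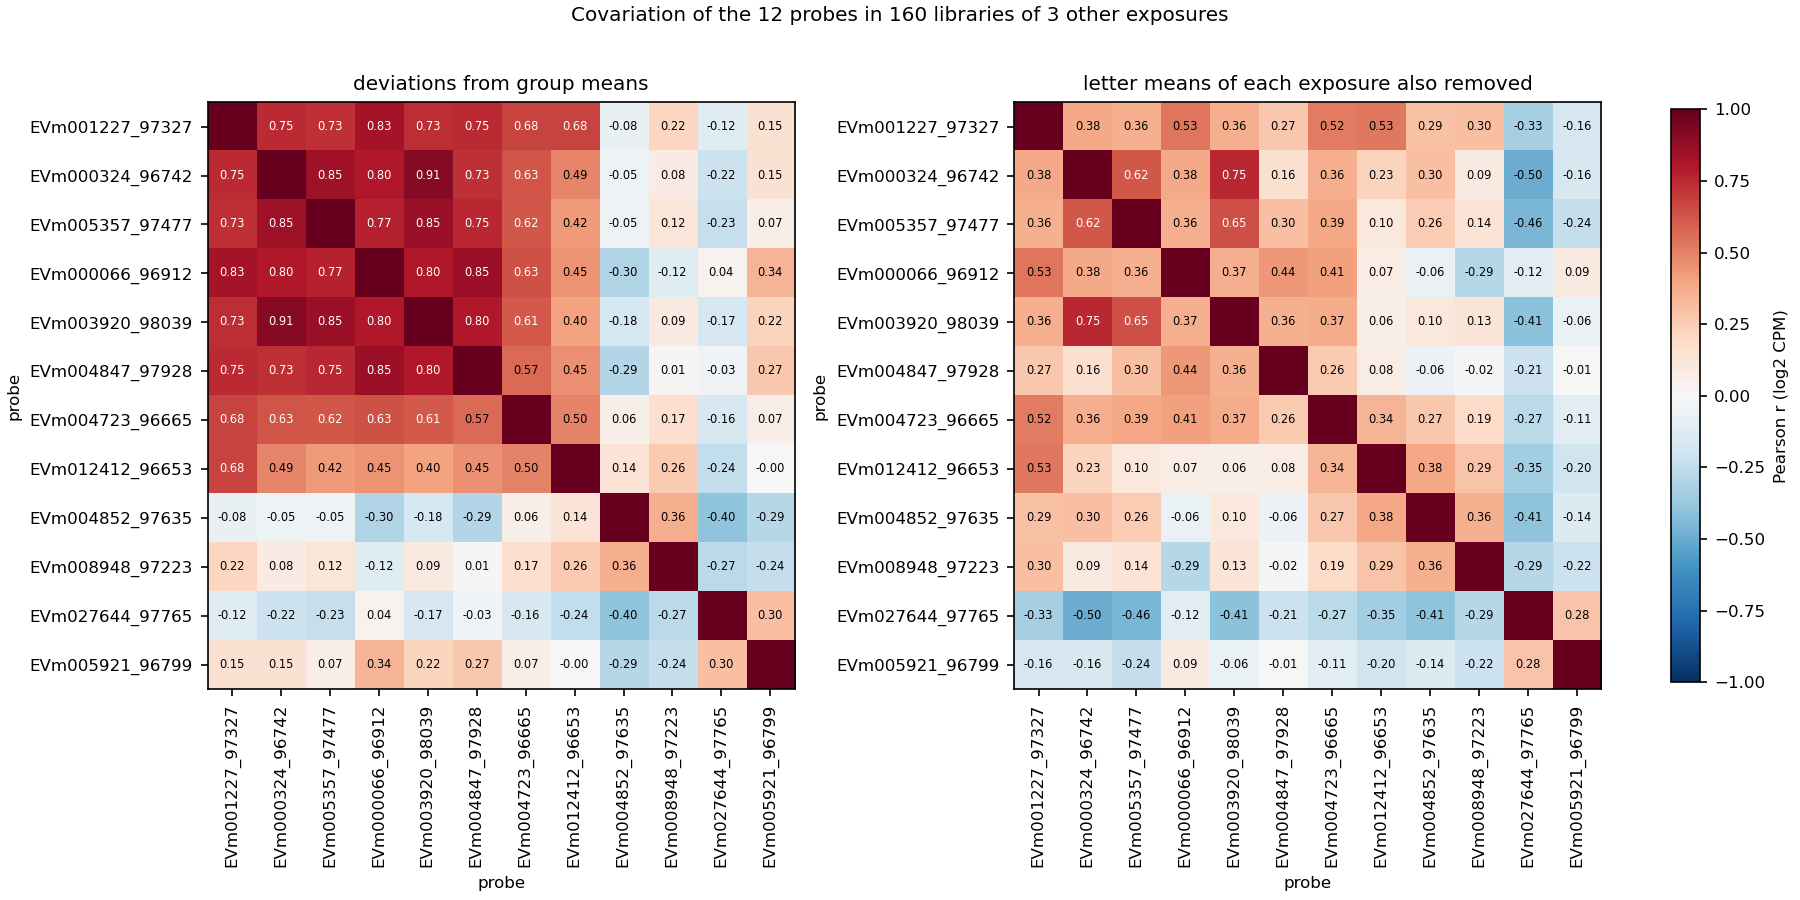
Pearson r between members of their log2 CPM over 160 libraries of exposures C1C2, C3C4 and C7C8, as deviations from group means (left) and with letter means of each exposure also removed (right); red is positive and blue negative. The median over the 15 pairs of the 6 probes at the upper left is 0.80 on the left and 0.37 on the right.

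The members also differed between exposures in DMSO alone. Of 10 members tested, 8 differed between exposures C1C2, C3C4 and C7C8, where 51.1% of all probes did (edgeR quasi-likelihood test of any difference, Benjamini-Hochberg over 1347 probes). Differences between exposures were frequent in both. The largest ratio between exposure means was that of Dapma7bEVm008948_97223, with 17.1-fold between 6.48 ± 4.37 CPM in C1C2 and 111 ± 43.6 CPM in C7C8 (SD, n = 6 each; adjusted p = 0.000324, edgeR). Its C1C2 pools, 1.71 to 12.3 CPM, lay wholly below its C7C8 pools, 40.4 to 168 CPM. The next was Dapma7bEVm027644_97765, with 6.18-fold between 51.8 ± 75.0 CPM in C3C4 and 320 ± 251 CPM in C1C2 (SD, n = 6 each; adjusted p = 0.0208, edgeR). Its C3C4 pools, 0 to 163 CPM, overlapped its C1C2 pools, which reached up to 688 CPM. The count of members was 10 without the pools lettered A, 4 without B, 5 without C and 4 with the CON pools alone; 51.9%, 31.2% and 35.9% of all probes were called without A, B and C.

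These 2 members, Dapma7bEVm008948_97223 and Dapma7bEVm027644_97765, also varied most among the members within an exposure. The coefficient of variation among DMSO pools, averaged over the 6 exposures, was 109% for Dapma7bEVm008948_97223 and 84.1% for Dapma7bEVm027644_97765, and the median of all probes in range was 19.2%. For Dapma7bEVm008948_97223 the cis-nonachlordane ratio of the rule rested largely on 1 pool at 6.677 µM with 499.6 CPM, while the other pools there held 1.58 and 12.6 CPM. For Dapma7bEVm027644_97765 the 9 pools at 21.1 to 2.113 µM ranged from 0 to 585 CPM. Among the other members the coefficient of variation ran from 17.3% for Dapma7bEVm000066_96912 to 56.4% for Dapma7bEVm004723_96665. That of Dapma7bEVm005921_96799 was 46.9%.

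**Figure D4:**
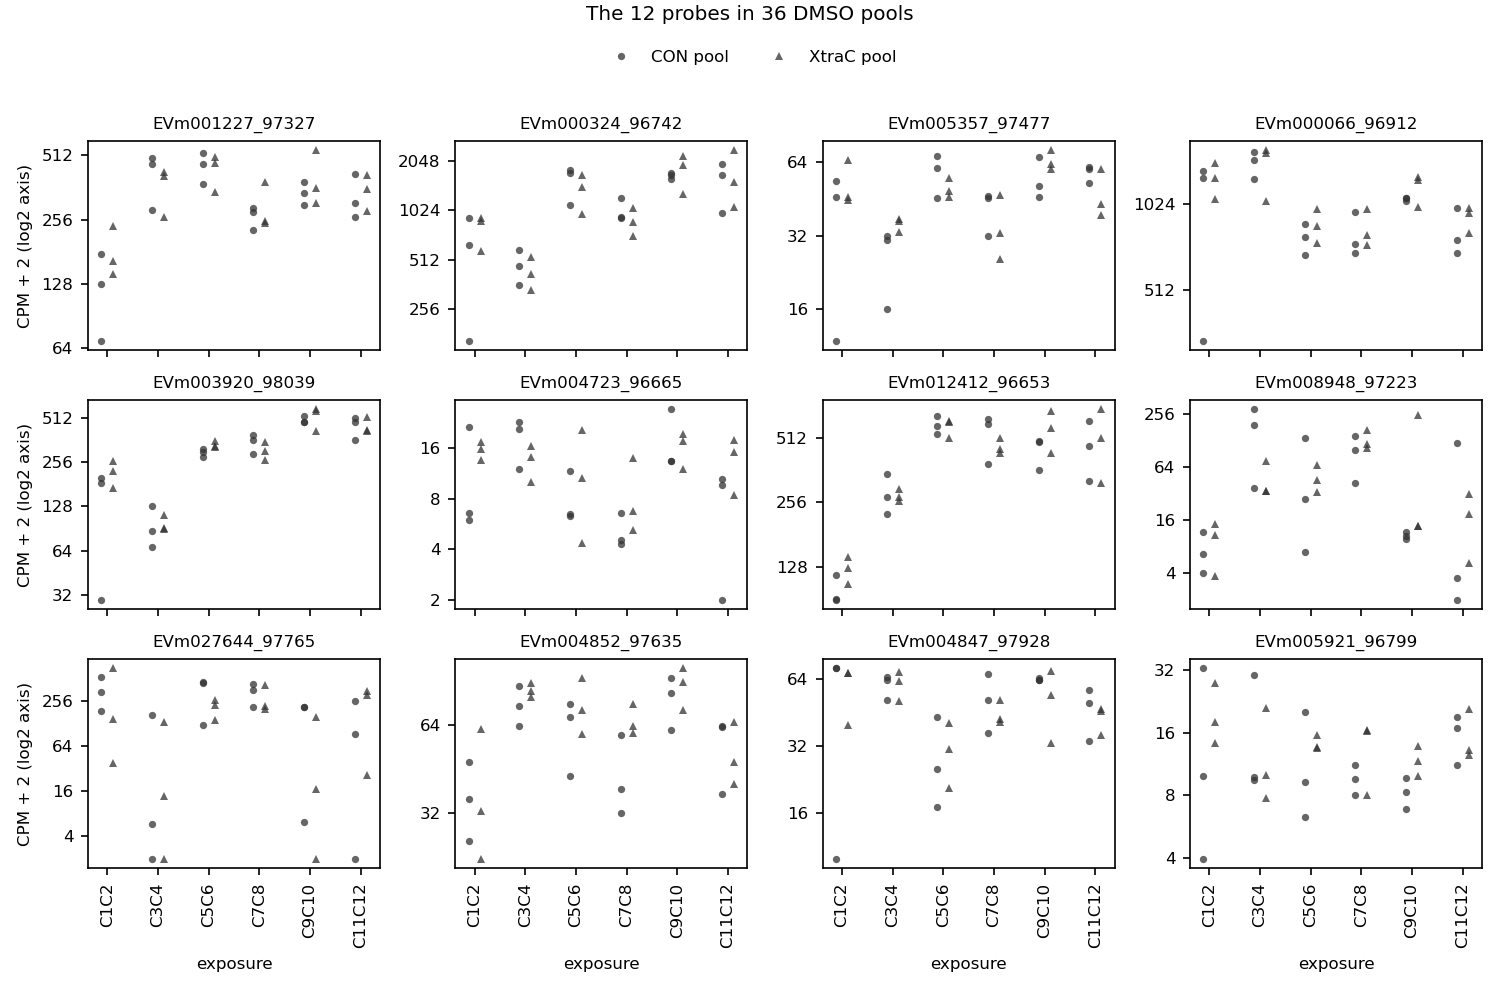
Level of each member (CPM + 2, log2 axis) in the 36 DMSO pools by exposure, with CON pools as circles and XtraC pools as triangles. Dapma7bEVm008948_97223 has exposure means from 6.48 CPM in C1C2 to 111 CPM in C7C8, and CON A of C1C2 is the lowest C1C2 pool for Dapma7bEVm000324_96742, at 163 CPM.

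The other 10 chemicals gave 79 groups of a chemical and a concentration, leaving out fipronil amide at 56.43 µM, which the rule had limited. In these the log2 ratio to DMSO of Dapma7bEVm005357_97477 lay between -0.77 and 0.65, and that of Dapma7bEVm001227_97327 between -0.41 and 0.99. It passed 1 in size in 0 of 79 groups for both. By the same measure Dapma7bEVm008948_97223 passed 1 in 55 of 79 groups and Dapma7bEVm027644_97765 in 26 of 79. The member with the reverse pattern passed it in 8 of 79, and the remaining members in 0 to 2 of 79. How often all eligible probes passed 1 was not examined, so these counts have no background. The groups in exposures C5C6, C9C10 and C11C12 are set against DMSO pools that also entered the rule.

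**Figure D5:**
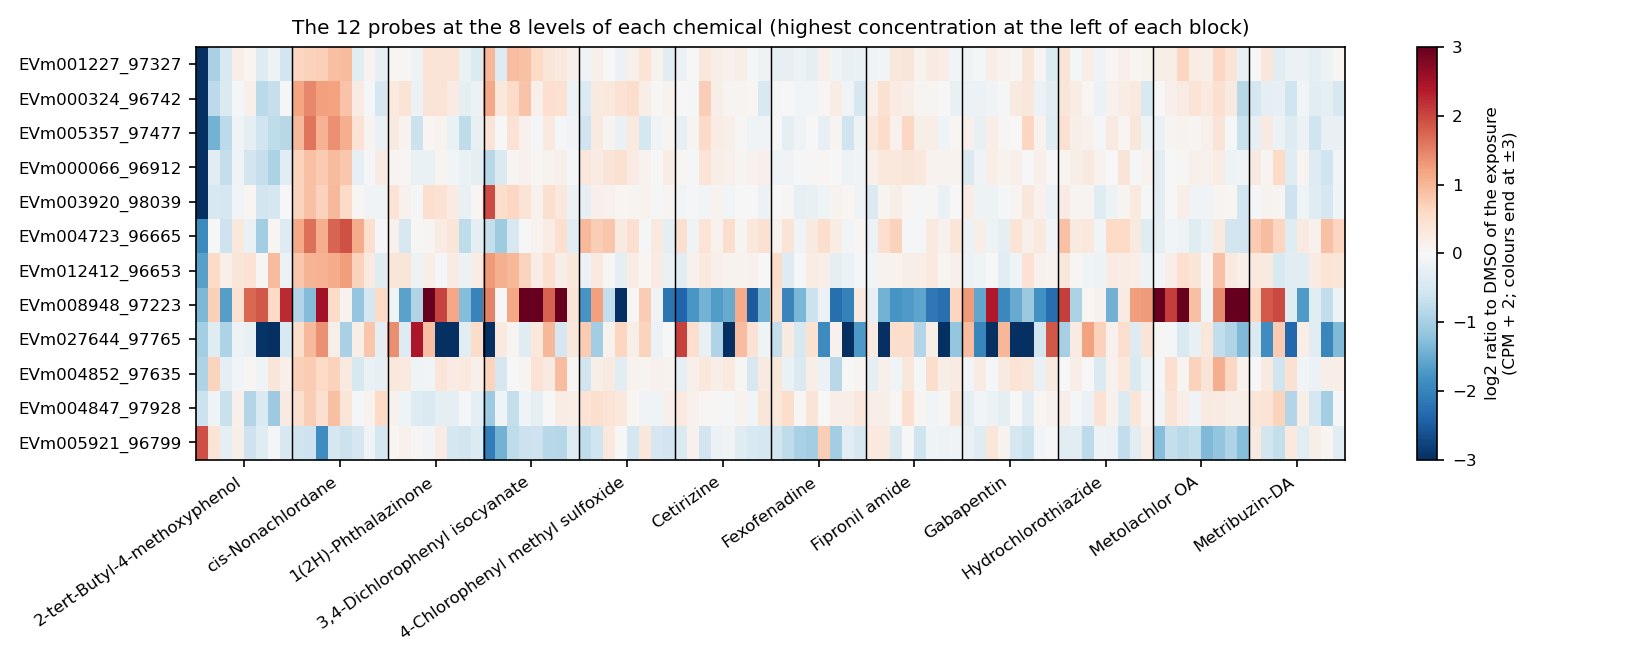
Log2 ratio of each member (CPM + 2) to the DMSO pools of its exposure at the 8 concentrations of each of the 12 chemicals, the highest at the left of each block, with colours ending at ±3. The top concentration of methoxyphenol and the 5 highest of cis-nonachlordane stand out for the upper rows, while Dapma7bEVm008948_97223 and Dapma7bEVm027644_97765 vary in every block.

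In a test over all concentrations of each of the 6 chemicals in exposures C1C2, C3C4 and C7C8, 1 of 12 members was called in at least 1 chemical, where 5.22% of all probes were (edgeR quasi-likelihood test, Benjamini-Hochberg within each chemical). With 1 member called, the members were not set apart from all probes here. The member was Dapma7bEVm008948_97223, called with 1(2H)-phthalazinone (adjusted p = 0.0241, edgeR) and with gabapentin (adjusted p = 0.0355, edgeR), which share their DMSO pools. With phthalazinone its mean level was 99.4, 33.9 and 56.7 CPM at the 3 highest concentrations. It was 986 CPM at 2.113 µM, where its pools held 364, 1226 and 1368 CPM, and then 448, 244, 42.9 and 25.5 CPM down to 0.021 µM. The DMSO pools held 32.0 to 286 CPM with a median of 53.7. With gabapentin its log2 ratio was 2.41 at 6.677 µM and -1.56 at 21.1 µM. For phthalazinone and gabapentin the labels give only the highest and lowest concentrations, 66.67 and 0.021 µM. Those between are the ones listed for methoxyphenol at the same levels, which has the same ends. Without the pools lettered A the count of members called was 2, and without those lettered C it was 0. The 2 were Dapma7bEVm012412_96653 and Dapma7bEVm004847_97928, both with 3,4-dichlorophenyl isocyanate. Over all probes 82 of 1534 and 17 of 1483 were then called, against 78 of 1493 with all pools. The phthalazinone call of Dapma7bEVm008948_97223 was lost without the pools of any 1 letter. Its gabapentin call was lost without A, without C, with the letter as a block and against the CON pools alone.

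3,4-Dichlorophenyl isocyanate, a reactive chlorinated aromatic compound, was examined at its 3 highest concentrations. These were taken because they were the ones with a response, so the choice came from these data. Against DMSO of exposure C1C2, 1 of 12 members was higher, where 3.85% of all probes were (edgeR quasi-likelihood test, Benjamini-Hochberg over 1454 probes). A count of 1 does not set the members apart from all probes. Dapma7bEVm012412_96653 held 68.8 and 474 CPM in the 2 pools at 66.67 µM, and 165, 203 and 297 CPM at 6.677 µM. At 21.1 µM it held 305 and 380 CPM, and 16.9 CPM in the library that stood apart. The 6 DMSO pools lay between 88.3 and 140.1 CPM, so 6 of the 8 treated pools were above all of them. Its log2 fold change was 1.17 ± 0.32 (SE, adjusted p = 0.0290, edgeR). It was also called without the library that stood apart, and it was not called without the pools lettered B, without those lettered C or against the CON pools alone. In the methoxyphenol pools that chose it, at 66.67 µM, this probe held 154, 191 and 210 CPM against 508 to 647 CPM in DMSO.

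Dapma7bEVm003920_98039, named after its values were seen, held 577 and 814 CPM at 66.67 µM isocyanate against 27.8 to 259 CPM in DMSO. Over the 3 highest concentrations its log2 fold change was 1.02 ± 0.62 (SE, adjusted p = 0.417, edgeR), and it was not called. Pools lettered A were low for this member's group of 6 in this exposure, and with the letter as a block the value was 1.44 ± 0.42 (SE, adjusted p = 0.0354, edgeR), and 5.23% of all probes were higher.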

How the data were processed

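The data are 335 TempO-Seq libraries of whole Daphnia magna. What the authors deposited for all libraries together is a table with the raw count of each probe, in whole numbers and unscaled. The submitters' processing notes name bcl2fastq; the counting program was not given in the sources used here, nor was a genome build. The authors also deposited tables per chemical of log2 values; only their concentration line was used here. Columns were matched to samples by name, and 0 columns stayed unmatched.

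The members and the lists were chosen with earlier results of these data known. The rule was applied to CPM from column totals, with 2 CPM added before logarithms. Tests ran on the counts with edgeR 4.0.16 under R 4.3.3, using TMM scaling, filterByExpr and the quasi-likelihood F test, groups being a chemical at a concentration, with Benjamini-Hochberg adjustment over all probes that passed the filter and a threshold of 0.05. SE is the log2 fold change divided by the root of F. The tests reported used treated pools that the rule did not use, and DMSO pools that entered it at most through the mean over 36 pools that set eligibility. The fits for cis-nonachlordane, methoxyphenol, isocyanate and the DMSO exposures were tested on simulated data; those of the difference and of the other chemicals use the same code. DESeq2 1.42.0, no filter, other reference groups, a linear trend, the CON pools alone, a replicate block and leaving out pools were the alternatives. Depth was 118094 to 1171681 counts per library, so a probe at 10 CPM rests on few counts; intervals and floors (3 counts) cover counting error only. Pools of a group are separate pools of animals exposed in 1 experiment, so p-values measure the spread between such pools.

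The probes named are, in each direction, the 2 with the largest smaller of both changes, and per further comparison at most 2 in each direction with the largest fold change among those called. Others are named where a count was small or where they were nearest to a limit. Figures were drawn with matplotlib 3.10.9.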

Additional observations from a re-analysis of the deposited data

Results flagged for a closer look

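In 6 of 72 groups of 6 DMSO pools (12 members in 6 exposures), 1 pool stood far from the other 5. The gap was measured against the group's range, with a cutoff passed in about 1 in 20 groups of independent, normally distributed values. The members share pools and some have low counts, and the rate for such values was not examined. Dapma7bEVm008948_97223 had 247 CPM in XtraC B of exposure C9C10, where the others held 7.65 to 11.8 CPM, and 119 CPM in CON C of C11C12, where the others held 0 to 29.9 CPM. Dapma7bEVm001227_97327 had 538 CPM in XtraC B of C9C10, against 299 to 383 CPM. Dapma7bEVm004723_96665 had 12.0 CPM in XtraC C of C7C8, against 2.30 to 4.74 CPM. On the low side, Dapma7bEVm000066_96912 had 339.5 CPM in CON A of C1C2, against 1066 to 1428 CPM, and Dapma7bEVm005357_97477 had 14.1 CPM in CON A of C3C4, against 28.8 to 35.4 CPM.

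The response to the 2 chemicals differed, by a test of the difference itself, for 3 members in the main fit. The count was 0 without the pools lettered B, 0 without those lettered C and 1 without the libraries of low total. The log2 difference, cis-nonachlordane minus methoxyphenol, was 1.97 for Dapma7bEVm005357_97477, 1.85 for Dapma7bEVm000324_96742 and 1.70 for Dapma7bEVm001227_97327.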

How the results depend on the processing

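The count of cis-nonachlordane members called was 7 with DESeq2, with no filter and with a replicate block, and 5 with a linear trend. Over all probes 76, 48, 78 and 45 were called in these, against 56 in the main fit. Leaving out the pools of 1 letter gave 1 to 5 members, and 8 to 34 over all probes. For methoxyphenol the count of members was 0 with DESeq2, no filter, the block or the trend. It was also 0 with other reference concentrations and without libraries of low total (chosen after seeing the data). With 1 letter left out it was 0 to 1. Over all probes 10 to 82 were called in these methoxyphenol fits. The difference between the chemicals was called for 3 members with DESeq2, no filter or the replicate block. It was called for 1 without the libraries of low total and for 0 to 4 with 1 letter left out. Over all probes 24, 17, 17 and 19 were called in the first of these, and 2 to 20 with 1 letter left out. For isocyanate the count of members was 0 against the CON pools alone, 2 with the replicate block and 0 to 1 with 1 letter left out. Over all probes it was 31, 116 and 18 to 97, against 80 in the main fit. For DMSO exposures it was 4 members with the CON pools alone and 4 to 10 with 1 letter left out. Over all probes 425 of 1364 and 419 to 703 differed. Over the 6 other chemicals it was 3 members with the replicate block and 0 to 2 with 1 letter left out. Over all probes it was 135 and 17 to 82, against 78 in the main fit. Fits that leave out a letter have fewer pools per group. The block is the pools' letter. Over all eligible probes, same-letter pools had a mean correlation of deviations of 0.11 for cis-nonachlordane and 0.12 for methoxyphenol. It was 0.23 in exposure C1C2, 0.078 in C3C4 and 0.046 in C7C8, with some pairs below 0 in each set. Pools of different letters had means of -0.054, -0.061, -0.12, -0.039 and -0.024 in the same order. Libraries matched their own letter best in 9 of 15, 18 of 21, 36 of 52, 41 of 54 and 33 of 54 cases. Pools thus resembled others of their letter to some degree, and the main fits left the letter out. In C1C2 the levels of 6 members moved with the letter, as described. The rule itself gave 10 to 17 probes under 9 alternatives (other added CPM, TMM scaling, other DMSO references, 1 letter left out), and shared 6 with the 12 members when all 36 DMSO pools were the reference. Dapma7bEVm008948_97223 and Dapma7bEVm027644_97765 met it in 4 of 9. Single-member fold changes were rerun under these settings only for members that had been called, and 0 of those reversed direction. Under the rule, 11 of the 12 members kept opposite signs without the pools lettered B, and all 12 did under each other alternative.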
